A study of Mus musculus with 6 samples.

Results

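The immediate early genes Fos, Fosb, Jun, Junb, Egr1, Atf3, Dusp1 and Ier3 and the inducible heat shock genes Hspa1a and Hspa1b, which cells switch on within minutes of stress, were 10 of the 32287 features counted. They were chosen by name, as genes known to rise while tissue is digested into single cells. Earlier results of these data were known at that choice, so the shares of members called below are not independent support. The cells came from inguinal lymph nodes of CD169-Tom mice (Cd169Cre/+.Tdtomato fl/fl), in which Cre driven from the Cd169 (Siglec1) locus turns on the red protein TOM for good, so that TOM marks descendants of cells that once expressed Cd169 as well as cells that do. The 2 unimmunized and the 2 immunized mice shared this genotype, and the immunized mice had received hen egg lysozyme (HEL) 9 days before harvest. In the paper's methods HEL was joined to an ovalbumin (OVA) peptide and injected with Sigma Adjuvant System. Its recipients had been given SWHEL B cells and OT-II T cells on the previous day. The paper's single-cell methods do not restate the antigen, the adjuvant or the cell transfer. All nodes were enzymatically digested, each mouse was marked with its own hashtag antibody, and CD11b+TOM+ cells were sorted, pooled and run as CITE-seq over 2 captures of the 10X 3' assay. No undigested tissue was analysed here, so a rise through digestion itself could not be measured, only where and in which mice the transcripts were found.

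Immediate early genes need no new protein to be transcribed. Growth factor, cytokine, calcium and stress signals reach their promoters through the MAP kinase pathway, serum response factor, CREB and NF-kB. Fos, Fosb, Jun and Junb encode subunits that pair into the transcription factor AP-1, Egr1 and Atf3 encode further transcription factors, Dusp1 encodes a phosphatase that switches MAP kinases off again, and Ier3 encodes a small NF-kB target that modulates survival and ERK signalling. Hspa1a and Hspa1b encode nearly the same inducible HSP70 chaperone and are driven by heat shock factor 1 when proteins unfold. In macrophages and neutrophils the same genes respond to microbial products and to the handling of the cells.

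Of 18662 barcodes, 12139 were kept after removing 1242 whose sequence occurred in both captures, 1238 without hashtag data, 1425 with over 25% of their UMIs (unique molecule counts) from mitochondrial genes, and those without 1 clear hashtag. The unimmunized mice gave 2828 and 537 cells with median depths of 5877 and 6280 UMIs, and the immunized mice 4052 and 4722 cells with 9674 and 12728 UMIs. Fixed marker genes placed 7703 cells (63.5%) in 14 types, and their counts summed per mouse and type made 53 libraries. Each had at least 5 cells, and their totals ran from 46793 to 15065336 UMIs. Levels are given as UMIs per 1000000 UMIs of the library (CPM). They serve mainly to compare a gene between libraries or sets of cells. How well each gene's transcripts were captured was not measured, so different genes are compared only as counts. The leading genes included the markers used for gating, such as Xcr1 in type 1 dendritic cells and S100a8 in neutrophils, which does not test the names. Genes outside the marker sets led as well, for example Wdfy4 and Cadm1 in type 1 dendritic cells and Ltf and Mmp9 in neutrophils. T, B and natural killer cells were present in the CD11b+TOM+ sort. Only the mice are replicates, 2 in each condition.

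The promoters show how close the heat shock pair is. RefSeq promoter windows on GRCm38.p6 were found for 9 members, all but Egr1, and the 250 bases before the gene start were read on the gene's strand. The windows of Hspa1a (chr17:34972157-34972406, minus strand) and Hspa1b (chr17:34959239-34959488, minus strand) are printed because these genes moved together below, and that of Dusp1 (chr17:26508473-26508722, minus strand) because it alone held a full cAMP response element. Capitals mark the matches found, GAANNTTC for the heat shock element and TGACGTCA for the cAMP response element.
Hspa1a: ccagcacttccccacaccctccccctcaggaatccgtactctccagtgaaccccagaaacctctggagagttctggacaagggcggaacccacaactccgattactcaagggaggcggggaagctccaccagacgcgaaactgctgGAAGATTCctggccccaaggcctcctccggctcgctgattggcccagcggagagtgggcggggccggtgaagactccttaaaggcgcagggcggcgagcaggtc
Hspa1b: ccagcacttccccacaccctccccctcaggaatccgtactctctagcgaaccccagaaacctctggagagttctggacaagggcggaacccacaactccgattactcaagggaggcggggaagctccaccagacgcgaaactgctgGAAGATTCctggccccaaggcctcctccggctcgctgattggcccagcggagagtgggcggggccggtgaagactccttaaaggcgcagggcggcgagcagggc
Dusp1: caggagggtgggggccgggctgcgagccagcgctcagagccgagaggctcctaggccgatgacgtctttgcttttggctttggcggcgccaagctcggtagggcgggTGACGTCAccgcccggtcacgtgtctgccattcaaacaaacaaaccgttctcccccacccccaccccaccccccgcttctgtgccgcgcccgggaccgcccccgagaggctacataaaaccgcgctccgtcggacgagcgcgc
The Hspa1a and Hspa1b windows differed at 3 of 250 bases, and both held GAAGATTC starting 104 bases before the gene start. In Dusp1 the match started 143 bases before it. Jun (chr4:95052223-95052472, minus strand) held GAATCTTC, 128 bases before its start. No other searched member window held either motif, an AP-1 site (TGANTCA) or a CArG box, the element serum response factor binds. All 4 patterns read alike on both strands and none overlapped another. Of 32851 RefSeq promoter windows of this length, 6.69% held the heat shock element, 6.75% the AP-1 site, 1.55% the cAMP response element and 1.47% the CArG box. A match is a run of letters and not a measured site. Only these exact patterns within 250 bases were searched, so variants of them and sites further upstream were not covered.

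Fos, Junb and Dusp1 stood highest in neutrophils, short-lived phagocytes of the innate response. These were 67 cells with a median of 3743 UMIs, and unimmunized mouse 2 held only 4 of them and gave no library. Fos was 505 CPM in unimmunized mouse 1 and 352 and 299 CPM in immunized mice 1 and 2, while no other library of any type exceeded 178 CPM. Junb ran at 1399, 914 and 995 CPM in the same libraries, against at most 475 CPM elsewhere. Dusp1 was 717, 410 and 185 CPM, and the next type, migratory dendritic cells, reached 150 CPM in its highest mouse. For these 3 genes the neutrophil range lay apart from that of every other type. Ier3 was 115, 246 and 167 CPM in neutrophils, a range that overlapped only inflammatory macrophages.

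The other early genes had flatter profiles. Jun had its highest mean in neutrophils too, at 44.3, 170 and 70.5 CPM. This range overlapped those of inflammatory macrophages (46.7 and 114 CPM) and of all monocyte types. Interferon-high and nonclassical monocytes reached 67.6 and 52.0 CPM in their highest libraries. Classical monocytes held 50.1, 64.7, 34.7 and 56.5 CPM in unimmunized mice 1 and 2 and immunized mice 1 and 2. Fosb, the rarest member, was found most evenly in type 1 dendritic cells, at 13.3, 20.5, 4.2 and 7.9 CPM from 3 to 17 UMIs a library, and in neutrophils at 0, 29.3 and 8.8 CPM. Neither nonclassical monocytes nor medullary sinus macrophages held a Fosb UMI in any mouse. Egr1, a zinc finger factor, was 168 and 147 CPM in 2 neutrophil libraries and 0 in the other. Atf3, a repressor of inflammatory genes, was 53.1, 11.7 and 26.4 CPM there from 2 to 6 UMIs, and in interferon-high monocytes it held to 33.2, 18.4, 26.8 and 28.3 CPM.

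Each type was then compared with the sum of all other typed cells of the same mice, with the mouse as a block, by edgeR's quasi-likelihood test over all genes (adjusted p by Benjamini-Hochberg, called under 0.05). This comparison was added after the data had been seen. In neutrophils 6 of 10 members were called higher and none lower, where 3.84% of 10880 genes were called higher. Hspa1a could not be fitted. The log2 difference was 4.07 ± 0.28 (SE) for Dusp1, 3.63 ± 0.28 for Fos, 3.31 ± 0.33 for Ier3 and 2.42 ± 0.24 for Junb. Egr1 (2.78 ± 0.40) and Jun (1.47 ± 0.36) were called as well, but neither with DESeq2 (adjusted p = 0.67 and 0.10), and Jun also fell to 0.55 without immunized mouse 1 (adjusted p = 0.86). Egr1 rested on 19 and 25 UMIs in 2 of the mice and was at 0 in immunized mouse 2. All neutrophils together held no Hspa1a UMI and 1 Hspa1b UMI, and Hspa1b was not called (-2.34 ± 1.35, adjusted p = 0.40). The limit that 3 counts set on Hspa1a in a neutrophil library was high, 26.6, 17.6 and 26.4 CPM in the 3 mice, so low levels could not be seen.

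**Figure D1:**
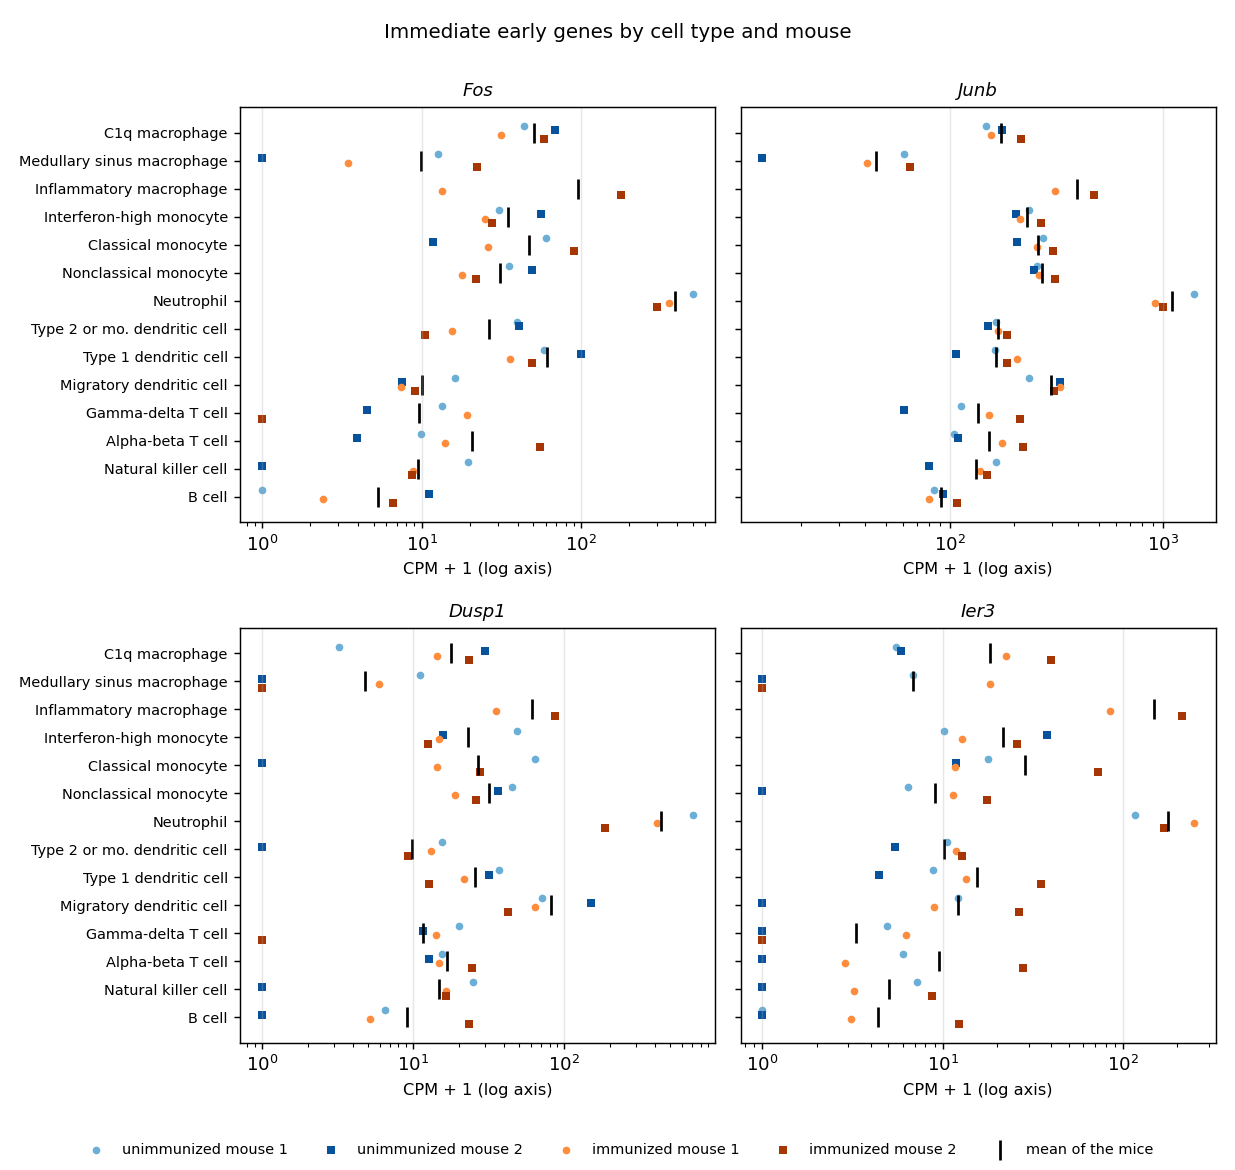
Level of Fos, Junb, Dusp1 and Ier3 in each cell type and mouse, as CPM plus 1 on a log axis, with 1 point per mouse and type of at least 5 cells and a black bar at the mean of the mice. The 3 neutrophil points of Fos, Junb and Dusp1 lie to the right of all other types, and the lymphoid types at the bottom lie mostly to the left.

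Inflammatory macrophages, which express Nos2 and Acod1, came almost wholly from the immunized mice, with 25 and 409 cells. They held Ier3 at 84.1 and 212 CPM, Junb at 311 and 475 CPM and Atf3 at 49.8 and 52.9 CPM. Ier3 there lay apart from every type but neutrophils, and Atf3 had its highest mean there. Fos was 12.5 CPM in immunized mouse 1 and 178 CPM in immunized mouse 2, so that the lower of them lay below the C1q macrophages of its own mouse (30.5 CPM). Against all other cells of the same 2 mice, 7 members were called higher and Hspa1a lower, where 5.77% of 11918 genes were called higher and 6.23% lower. With only 2 mice, no fit without 1 of them was run. The log2 difference was 2.70 ± 0.22 for Ier3, 1.78 ± 0.23 for Dusp1, 1.39 ± 0.21 for Jun, 1.36 ± 0.24 for Atf3 and 0.88 ± 0.18 for Junb. The calls for Fos, Fosb and Hspa1a were lost with DESeq2 (adjusted p = 0.44, 1.00 and 0.51).

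Type 1 dendritic cells, which take up dead cells and cross-present their antigens, had the highest mean levels of the heat shock pair. Hspa1a was 86.7 and 188 CPM in the unimmunized and 31.9 and 21.0 CPM in the immunized mice, and Hspa1b was 105 and 191, then 36.1 and 15.7 CPM. In each of the 4 mice both genes were higher in these cells than in any other type. Across mice, though, the ranges overlapped those of all monocyte and other dendritic cell types, C1q macrophages, natural killer cells and gamma-delta T cells. For Hspa1b they overlapped alpha-beta T cells too. Against all other typed cells of the same mice the log2 difference was 2.32 ± 0.23 for Hspa1a (adjusted p = 2.4e-04) and 2.51 ± 0.20 for Hspa1b (7.0e-05), where 8.44% of 8934 genes were called higher. Both calls held with DESeq2, with other size factors and without each mouse in turn. No other member was called in these cells, Fos included (0.91 ± 0.37, adjusted p = 0.13), with 57.8, 99.1, 34.7 and 48.5 CPM.

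The transcripts were carried by a share of the type 1 dendritic cells, and in the unimmunized mice by a larger share. At least 5 UMIs of the pair were found in 20 of 77 and 11 of 20 cells of the unimmunized mice and in 6 of 43 and 2 of 46 cells of the immunized mice, while no B cell held more than 1. Median depth of the type 1 dendritic cells was close in the 4 mice, from 15973 to 17433 UMIs per cell. B cells were shallower, with a median of 4564 UMIs. Of 60 type 1 dendritic cells with an Hspa1a UMI, 48 also held Hspa1b, which was found in 64 of all 186. Of 52 with a Fos UMI, 28 held Hspa1a. The genes can share reads: 49.1% of the 91-base windows of the Hspa1a transcript and 52.0% of those of the Hspa1b transcript also occur in the other, but none of the last 500 windows, which a 3' assay mostly reads. Reads of the shared stretch could still have been dropped or divided.

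**Figure D2:**
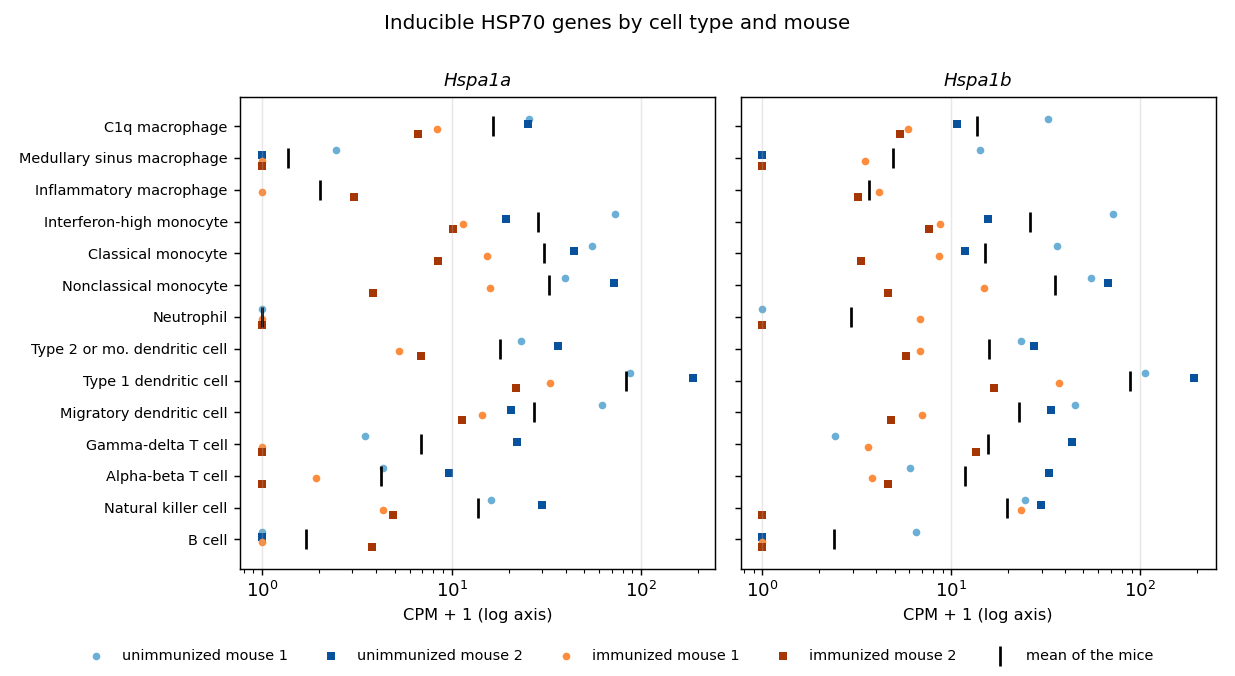
Level of Hspa1a and Hspa1b in each cell type and mouse, as CPM plus 1 on a log axis, with 1 point per mouse and type and a black bar at the mean of the mice. The blue points (unimmunized) lie to the right of the orange ones (immunized) in most rows, type 1 dendritic cells reach furthest right, and neutrophils and B cells stay at the left.

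Migratory dendritic cells, which carry antigen from tissue and express Ccr7 and Fscn1, had a pattern of their own. Dusp1 was 70.6, 150, 62.8 and 41.6 CPM in unimmunized mice 1 and 2 and immunized mice 1 and 2 and its log2 difference from all other cells was 1.69 ± 0.36. Junb was also called higher (0.82 ± 0.19), but not without unimmunized mouse 1 or without immunized mouse 1 (adjusted p = 0.051 and 0.065). Fos went the other way, at 15.1, 6.5, 6.5 and 8.0 CPM and a log2 difference of -1.94 ± 0.38. Of all genes 14.1% were called higher and 11.5% lower in these cells. Type 2 or monocyte-derived dendritic cells differed only in Dusp1, which was lower (-1.31 ± 0.28, where 6.94% of genes were called lower).

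Among the other myeloid types few members stood apart. C1q macrophages, the type that holds cells with the genes for apoptotic cell uptake, had no member called in either direction, where 11.4% of genes were called. Their Fos was 42.7, 68.0, 30.5 and 57.4 CPM. Interferon-high monocytes had none called either, where 13.6% of genes were. Classical monocytes had Atf3 higher (0.94 ± 0.16), where 4.66% of genes were, and Hspa1a at 0.73 ± 0.20 was called but not with DESeq2 or without any of 3 mice (adjusted p = 0.052 to 0.38). Nonclassical monocytes had Junb (0.51) and Hspa1b (0.77) higher and Ier3 lower (-1.17), where 9.15% of genes were called higher and 8.77% lower, and each of these calls was lost when any of several mice was left out (adjusted p up to 0.12, 0.19 and 0.42). Medullary sinus macrophages, which express Marco and Cd209b, had 6 of 8 tested members lower, where 21.6% of genes were called lower, among them Junb (-2.01 ± 0.30) at 59.7, 12.1, 39.7 and 64.1 CPM. These were the shallowest cells, with a median of 2039 UMIs, and 19 of the 40 values of members in their libraries were 0. The calls of Jun, Atf3 and Hspa1b were lost without immunized mouse 1 (adjusted p = 0.14, 0.068 and 0.065). The part of depth in these differences was not tested.

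In the lymphoid types most members were lower than in the remaining cells. Members lower than in all other cells numbered 8 of 9 tested in alpha-beta T cells, 8 of 9 in gamma-delta T cells, 8 of 9 in B cells and 5 of 9 in natural killer cells, where 18.3%, 18.9%, 17.7% and 16.2% of genes were called lower. All 5 natural killer cell calls were lost without immunized mouse 1 (adjusted p = 0.067 to 0.11), and 5 calls in alpha-beta T cells, 3 in gamma-delta T cells and 3 in B cells were lost without 1 of the mice. B cells had 5 Fos UMIs and 1 Hspa1a UMI in 307 cells, at a median depth of 4564 UMIs. Egr1 was the exception. It was 31.7, 42.3, 28.8 and 62.2 CPM in gamma-delta T cells, the second highest type, and called higher there (0.92 ± 0.27), where 11.5% of genes were, though not without immunized mouse 1 or unimmunized mouse 2 (adjusted p = 0.072 and 0.071). In alpha-beta T cells it was 20.7, 8.7, 42.6 and 45.03 CPM, above every C1q macrophage library in 3 of the 4 mice.

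**Figure D3:**
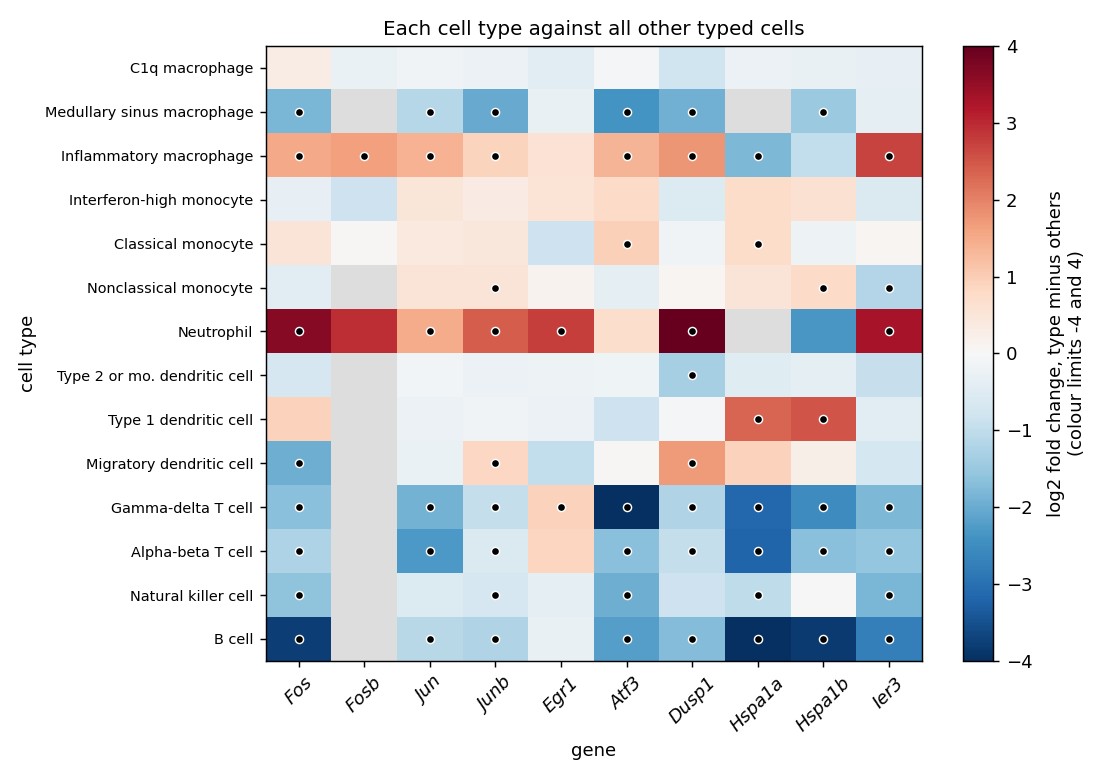
Log2 difference of each member between 1 cell type and all other typed cells of the same mice, with colours limited to -4 and 4, a dot where the difference was called and grey where it was not tested or could not be fitted. Red fills the rows of neutrophils and inflammatory macrophages outside the heat shock columns, the heat shock columns are darkest red in type 1 dendritic cells, and the lymphoid rows are mostly blue, with Egr1 red in both kinds of T cell.

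The widest split in the sort, myeloid against lymphoid types, was compared in a fit with a coefficient for each type and condition. Types had equal weight within each condition. Inflammatory macrophages had no unimmunized library and so weighed less than the other myeloid types. Where a type had no UMI of a gene in a condition, that coefficient was undetermined and the test could not be fitted, which was so for Fosb, Egr1, Hspa1a, Hspa1b and Ier3. The other 5 were all called higher in myeloid types, where 33.3% of the 6881 genes that could be fitted were. The mean of the type means was 74.4 CPM in myeloid and 10.3 CPM in lymphoid types for Fos (log2 difference 2.33 ± 0.46), 21.7 and 3.76 CPM for Atf3 (2.71 ± 0.46), 71.1 and 12.1 CPM for Dusp1 (1.52 ± 0.33), 44.1 and 14.4 CPM for Jun (1.62 ± 0.22) and 310 and 127 CPM for Junb (1.08 ± 0.10). Without neutrophils the myeloid mean was 39.8 CPM for Fos, 30.4 CPM for Dusp1 and 222 CPM for Junb, and the log2 difference was 1.89, 1.02 and 0.76, with all 5 members still called (largest adjusted p = 0.0052, for Dusp1). That fit has no term for the mouse, although libraries of 1 mouse are not independent. Without unimmunized mouse 1 the tests of Fos, Jun, Atf3 and Dusp1 met empty groups and none was called. With a term for each mouse added to the fit the 5 were called as well, where 22.6% of genes were called higher. With myeloid and lymphoid cells summed within each mouse and the mouse as a block, 8 members were called higher, where 27.1% of 11015 genes were. They included Hspa1a (2.93 ± 0.27), Ier3 (2.19 ± 0.33) and Hspa1b (1.63 ± 0.43). Egr1 (-0.49 ± 0.24, adjusted p = 0.13) and Fosb (0.61 ± 0.57, 0.42) were not called. The myeloid types other than neutrophils and medullary sinus macrophages had median depths of 8521 to 16632 UMIs, and the lymphoid types 4564 to 6230.

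Macrophage and monocyte types were compared on the premise that tissue macrophages depend more on digestion to be freed, which was not measured. Both came from the same digested, sorted and pooled nodes. The part of digestion in any difference was not tested. With 3 macrophage types against 3 monocyte types, Junb (-1.17 ± 0.14), Jun (-0.82 ± 0.27), Atf3 (-1.12 ± 0.38) and Hspa1b (-1.41 ± 0.46) were called lower in macrophages, where 19.1% of 8860 genes were, and Fos (-0.47 ± 0.45), Dusp1 (-1.05 ± 0.42, adjusted p = 0.057) and Ier3 (-0.09 ± 0.63) were not called. Dusp1 was called in the blocked fit (adjusted p = 0.040), where 18.1% of genes were called lower. Fosb, Egr1 and Hspa1a could not be fitted. Inflammatory macrophages entered only the immunized side of this contrast, so they weighed less than C1q and medullary sinus macrophages. Of the 4, Jun, Atf3 and Hspa1b also lost their call without unimmunized mouse 1 or immunized mouse 1 (adjusted p = 0.069 to 0.39), and Jun and Atf3 without unimmunized mouse 2 (0.079 and 0.063). Without medullary sinus macrophages none of those 4 was called: Junb was -0.29, Jun -0.05, Atf3 0.39 and Hspa1b -1.03 (adjusted p = 0.26, 1.00, 0.52 and 0.18). Hspa1a could then be fitted and was called lower (-1.30 ± 0.36, adjusted p = 0.020), where 4.83% of 11092 genes were. With each side summed per mouse, only Hspa1a (-1.26 ± 0.25) and Hspa1b (-0.96 ± 0.25) were called lower, where 6.34% of 9670 genes were.

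Hspa1a and Hspa1b were lower in the immunized mice over all cells and in most types. Over all kept cells Hspa1a was 23.7 and 33.8 CPM in the unimmunized and 8.1 and 5.1 CPM in the immunized mice, and Hspa1b was 25.9 and 37.2, then 6.7 and 3.5 CPM. Both unimmunized mice were above both immunized mice in 10 of the 12 types found in all mice for Hspa1a and in 9 for Hspa1b, and the reverse was seen in none. In nonclassical monocytes, for instance, Hspa1a was 38.6 and 70.5 CPM against 15.0 and 2.9 CPM, in natural killer cells 15.1 and 28.8 against 3.3 and 3.9 CPM, and in C1q macrophages 24.7 and 24.3 against 7.3 and 5.6 CPM. Over all genes this order of the mice occurred in 21.1% of pairs of gene and type. It was found in at least 9 types for 0.519% of genes and in at least 10 types for 0.134%. Some orders of the heat shock pair rest on few UMIs of both genes together. Gamma-delta T cells held 11 and 18 in unimmunized mice 1 and 2, but only 1 in each immunized mouse. There 3 counts equal 7.8 and 37.3 CPM in immunized mice 1 and 2, so the Hspa1a order is not resolved. Natural killer cells held 1 in immunized mouse 2, and C1q macrophages held 7 in unimmunized mouse 2.

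The fit with a coefficient for each type and condition, at equal weight, could not be made for these genes, since at least 1 type had no UMI of them in both mice of a condition. The same held for Fosb, Egr1 and Ier3 and for 2921 of 11173 genes. The fit takes libraries of 1 mouse as independent, which can make its p-values between conditions too small. Of the 5 members that could be fitted only Junb was called (0.39 ± 0.092, adjusted p = 0.0021), where 14.3% of 8252 genes were called higher. That call was lost without immunized mouse 2 (0.27, adjusted p = 0.066) and without unimmunized mouse 2 (0.23, 0.089). Fos (-0.26 ± 0.40, adjusted p = 0.83), Jun (0.30 ± 0.19, 0.34), Atf3 (0.44 ± 0.34, 0.46) and Dusp1 (-0.37 ± 0.30, 0.50) were not called. Of 1750 genes called in all, 1228 were higher and 522 lower in immunized mice. These include 166 genes with no UMI in some type and condition. Among the 8252 genes that could be fitted, 1184 were higher and 400 lower. The split of the 1750 turned with the scaling, to 647 and 1239 under RLE factors and 547 and 1067 with DESeq2. With the mouse as a block it was 809 and 907. RLE factors moved the median of all genes from 0.01 to -0.10 on the log2 scale and DESeq2 to -0.12, and Junb was 0.28 under both.

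A model with 1 common condition term over all types, added after seeing the data, could be fitted for all 10. It also takes libraries of 1 mouse as independent, which can make its p-values too small. Hspa1a fell by 2.12 ± 0.18 on the log2 scale in immunized mice (adjusted p = 7.9e-12) and Hspa1b by 2.24 ± 0.24 (1.5e-09), where 10.3% of 11173 genes were called lower. Dusp1 (-0.62 ± 0.19, 0.015) was called lower too, and Junb (0.37 ± 0.085) and Ier3 (1.17 ± 0.30, 0.0024) higher, where 14.3% of genes were called higher. Dusp1 was not called in the other 3 models, and with the types summed it was 0.16. With limma-voom the mouse was a random block, with a correlation (0.059) shared by all genes. This allows only in part for libraries sharing a mouse. Condition varies only between the 4 mice, so these p-values can be too small as well. Groups with no UMI are filled there by a constant added before the log. Hspa1a was -1.71 ± 0.35 (adjusted p = 7.4e-04), Hspa1b -1.85 ± 0.38 (7.9e-04) and Junb 0.40 ± 0.12 (0.017), all 3 called. Of all genes 8.12% were called lower and 7.24% higher, and Ier3 was not called (1.10 ± 0.49, 0.13). With all typed cells summed per mouse, 2 mice against 2, edgeR called none of 13088 genes, though 3736 had an unadjusted p under 0.05. There Hspa1a was -1.95 ± 0.34 and Hspa1b -2.43 ± 0.39 (both with adjusted p = 0.086) and Ier3 2.83 ± 0.86 (0.12), and changes in the makeup of the cells are part of these values. An exact permutation test over the 4 mice of the mean log2 level over 12 types gave p = 0.333 (two-sided) for both heat shock genes, Junb, Fosb and Ier3, the smallest p that 2 against 2 mice allow. Cells of the immunized mice were also deeper, and the hashtag, the mouse and the condition cannot be told apart beyond 2 mice on each side.

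**Figure D4:**
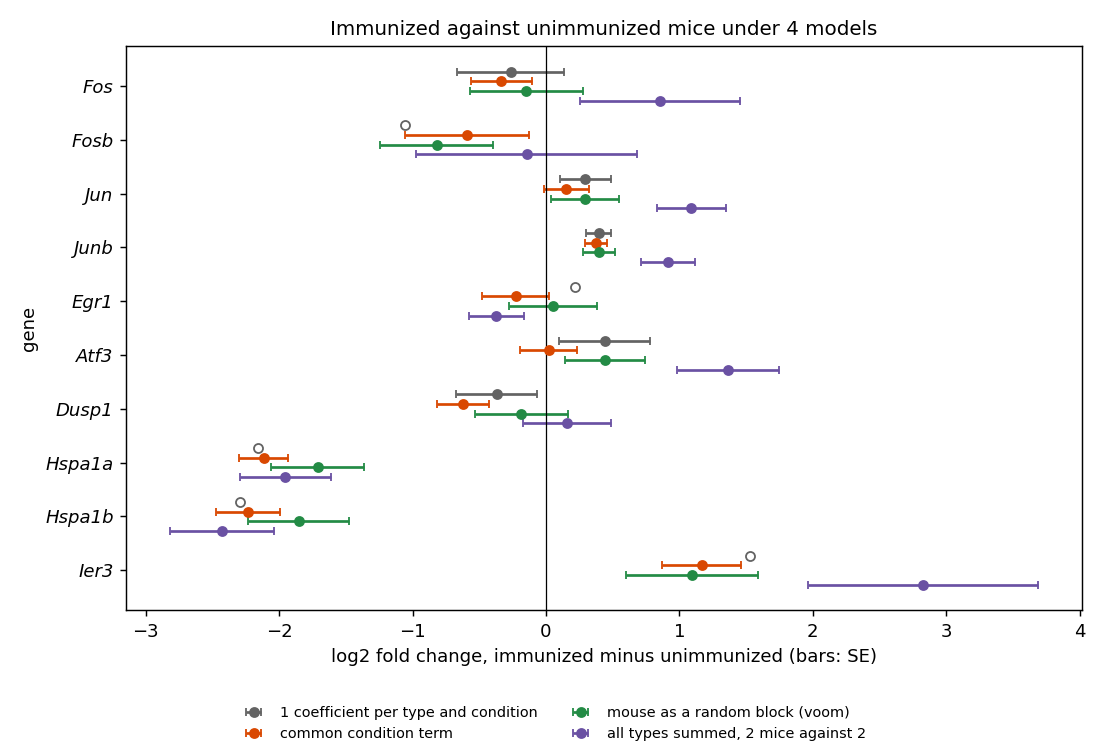
Log2 difference between immunized and unimmunized mice for each member under 4 models, with SE bars and open points where the test could not be fitted. Hspa1a and Hspa1b lie between -1.7 and -2.5 in all 4 models, and Fos, Jun, Atf3 and Ier3 move furthest to the right when all types are summed.

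Over all cells Ier3 and Fos were highest in immunized mouse 2. Ier3 over all kept cells was 7.0 and 4.7 CPM in the unimmunized and 13.2 and 58.1 CPM in the immunized mice, and immunized mouse 2 supplied 3599 of its 4264 UMIs. Within types, both immunized mice were above both unimmunized mice in 5 of 12 for Ier3, among them C1q macrophages with 4.5 and 4.9 against 21.4 and 38.6 CPM, where 16.1% of pairs of gene and type have this order. Fos over all cells was 27.9, 32.0, 20.02 and 62.8 CPM, so the immunized mice held both the lowest and the highest value. Inflammatory macrophages, nearly all from immunized mouse 2, held 1133 of its 3890 Fos UMIs. Junb followed the immunized order in 5 of 12 types and the reverse in none. Both unimmunized mice were above both immunized mice in 4 of 12 types for Dusp1, with the reverse in none, and in 4 for Fos, with the reverse in 1, where 21.1% of pairs have this order. Egr1 was 23.6 and 13.1, then 11.2 and 11.1 CPM over all cells. No member's condition difference was called to vary between types, where 0.483% of 11173 genes were by edgeR's F test. The smallest adjusted p was 0.28, for Egr1, and the test carries the same empty groups.

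The 2 captures served as a technical check, since 1 pool of cells was divided over them. The labels do not say which capture a barcode ending stands for, so the endings are named 1 and 2. With the mouse as a block, no member was called between endings, where 0.95% of 12321 genes were. The largest member difference was 0.21 ± 0.10 for Hspa1b (adjusted p = 0.68), and the smallest adjusted p was 0.47, for Atf3 (0.17 ± 0.062). Hspa1a in the better covered mice was 24.7 and 22.6 CPM by ending in unimmunized mouse 1, 7.81 and 8.38 CPM in immunized mouse 1 and 5.13 and 5.17 CPM in immunized mouse 2. In each ending Hspa1a was higher in both unimmunized than in both immunized mice. In unimmunized mouse 2, with 261 and 276 cells, Fos was 47.1 and 18.7 CPM by ending.

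The members did not form a single block. Over the 53 libraries, with log2 of CPM plus 5, Hspa1a and Hspa1b had a Pearson r of 0.87 and Junb an r of 0.77 with Dusp1, 0.71 with Atf3 and 0.70 with Fos and with Ier3. Between the groups it was low, 0.17 for Fos with Hspa1a and -0.21 for Ier3 with Hspa1a. Egr1 had no r above 0.41, with Dusp1. The libraries share 4 mice and differ widely in depth, so these values are a description. Over the same libraries and 7760 genes of at least 10 CPM, Fos was most like Zfp36 (r = 0.78), which encodes a factor that destabilises mRNA, then Il1b (0.77), Clec4d (0.74), Asph (0.73) and Rasgrp4 (0.72). Hspa1a was most like Nptn (0.70), Sod1 (0.69), Cyp27a1, Herpud1 and Prkab2 (all 0.68).

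Within a type the members differed in how evenly cells held them. Among 1340 C1q macrophages, 372 held a Fos UMI and 413 a Jun UMI, yet Fos had 997 UMIs and Jun 691, and 1 cell held 32 of Fos while none held more than 9 of Jun. The 134 C1q macrophages highest in a gene held 70.2% of its UMIs for Fos, 57.9% for Jun and 36.1% for Junb, which was found in 1027 of the cells. Among 67 neutrophils, 25 of the 28 with a Fos UMI also held Dusp1, which was found in 36 of all. Among 436 inflammatory macrophages, 143 of the 184 with Fos held Ier3, found in 260. Deeper cells hold more of every gene, and the part of depth in these joint counts was not tested.

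Related genes were listed to see how far the pattern reached. Of 29 other immediate early genes, 28 were tested and 22 could be fitted between immunized and unimmunized mice. One was called higher, Gadd45b (0.51 ± 0.17), and 3 lower, among them Klf2 (-0.61 ± 0.13) and Myc (-0.56 ± 0.17), with a median of -0.09 against 0.01 over all genes, of which 14.3% were called higher and 400 of 8252 lower. With the mouse as a block only Socs3 (1.82 ± 0.20) was called higher and only Klf2 (-0.73 ± 0.18) lower, so Gadd45b and Myc lost their calls. With the common condition term Socs3, an inhibitor of cytokine signalling, was highest (1.60 ± 0.14), with a mean of the type means of 63.9 CPM in immunized and 18.1 CPM in unimmunized mice, and Nr4a1 was lower (-1.11 ± 0.25). Of 16 other heat shock genes and chaperones, 15 were tested and 14 could be fitted, with 3 higher and 2 lower. Hspa8, the constitutive HSP70, was higher (0.46 ± 0.064) and so was Hsp90ab1 (0.25 ± 0.073), while Hsph1 (-0.77 ± 0.15) and Dnaja1 (-0.31 ± 0.092) were lower. The heat shock list's median was -0.19. With the common condition term, Dnajb1 was lower as well (-0.39 ± 0.11). Of 11 NF-kB early response genes 7 could be fitted and 3 were higher, among them Il1b (0.93 ± 0.22) and Nfkbia (0.42 ± 0.10), where 14.3% of genes were. With the mouse as a block Nfkbia (0.39 ± 0.12) and Relb (0.29 ± 0.10) were called higher, and Il1b was not called. Of 10 regulators, 9 could be fitted and 2 were lower, Hsf2 (-0.67 ± 0.18) and Creb1 (-0.30 ± 0.090). No gene of the 4 lists was called with 2 mice against 2.

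Between lineages the lists parted. In myeloid against lymphoid types 12 other immediate early genes were higher, led by Klf4 (2.05 ± 0.27) and Rhob (1.96 ± 0.26), and 5 were lower, among them Myc (-1.62 ± 0.18) and Klf2 (-1.58 ± 0.14), of 21 that could be fitted, where 33.3% of all genes were called higher and 1722 of 6881 lower. Of 13 heat shock genes and chaperones 2 were higher and 7 lower, with Hspa8 higher (0.81 ± 0.069) and Hsph1 lower (-0.94 ± 0.17). All 7 fitted NF-kB genes were higher, led by Il1b (3.01 ± 0.25). With sums per mouse all 11 could be fitted, and 8 were higher while the chemokines Ccl4 (-2.49 ± 0.45) and Ccl3 (-1.31 ± 0.25) were lower. Of 7 regulators Mapk3 was higher (1.15 ± 0.12) and 3 lower, among them Crem (-1.17 ± 0.24) and Elk4 (-0.90 ± 0.12). In macrophages against monocytes 12 other immediate early genes of 24 were lower and none higher, where 19.1% of genes were lower, and 6 of 25 were lower without medullary sinus macrophages, where 4.83% were, among them Klf2 (-1.80) and Nr4a1 (-3.25), which nonclassical monocytes need and express as a leading gene. In the same comparison 2 heat shock genes were higher and 2 lower of 15, and 5 of 8 NF-kB genes and 3 of 10 regulators were lower. Without medullary sinus macrophages 2 of 9 NF-kB genes were lower and no heat shock gene or regulator was called. None of the 4 lists had a gene called between endings.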

How the data were processed

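The authors aligned the reads of each capture to mm10 with Cell Ranger 4.0.0 and deposited, for every barcode, raw UMI counts of genes, antibody tags and hashtags, which had not been normalized. Cells were given to a mouse where 1 of the 4 hashtags held at least 80% of at least 10 hashtag counts. Barcodes over 25% mitochondrial UMIs were dropped, as were barcode sequences found in both captures. Hashtag counts were matched by sequence alone, so for those sequences they could not be assigned to either capture. Scrublet's own threshold called 0 and 1 doublets and so did not work, and removing its top scores (746 and 648 barcodes) was run as an alternative. The study's own cell labels were not used here. Types were gated on fixed markers (mean z score of at least 0.5 and 0.25 above the next type, with at least 2 markers detected), which leaves 4436 kept cells untyped.

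UMI counts were summed per mouse and type. The main test was edgeR 4.0.16 (quasi-likelihood, TMM, filterByExpr, Benjamini-Hochberg over all genes, called under 0.05), in R 4.3.3, with DESeq2 1.42.0 as an alternative. The mouse was a random block in limma 3.58.1 for the condition comparison and a term for each mouse in edgeR for the others. The block stands for the mouse, which libraries of several types share (correlation within a mouse 0.059). Tests were fitted on whole tables and only the members and listed genes are named: all 10 members, and from each of the 4 lists the called genes with the largest differences. The members and lists were chosen with earlier results of these data known. Nothing pairs an unimmunized with an immunized mouse. Tests of each type against the others, the common condition term, the sums per mouse, the interaction and the fits without a type were chosen after seeing the data. On simulated counts the main condition test recovered 83% of genes changed 2-fold and 83% of those changed 4-fold. The neutrophil test recovered 24% of those changed 2-fold and 55% of those changed 4-fold. Apart from the changes put in, the simulation gave each gene 1 level over all types and no difference between mice. These shares therefore need not hold for the real libraries. Seurat 5.3.0 (HTODemux) gave the alternative hashtag calls (9902 cells). Where a floor is given it is 3 counts, for counting error only. Promoters came from RefSeq and transcripts from GENCODE vM21.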

Additional observations from a re-analysis of the deposited data

How the results depend on the processing

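The signs of Hspa1a and Hspa1b between immunized and unimmunized mice were negative under every alternative run (Hspa1a -1.37 to -2.84, Hspa1b -1.30 to -3.53), although many of those fits were undetermined for them. Of the 1750 genes called between conditions, 166 had a group without a UMI. The 1750 became 1164 with HTODemux, 1142 with a stricter gate, and 718 and 654 with barcode ending 1 or 2 only. They became 2752 with the common condition term and 0 with sums per mouse by edgeR (3736 at an unadjusted p under 0.05). With 1 mouse left out they ran from 431, without unimmunized mouse 1, to 1381. Fos turned to 0.85 and Dusp1 to 0.16 with sums per mouse. With 1 mouse left out Fos ran from -0.65 to 1.09, Dusp1 from -1.33 to 2.71, Jun from -0.49 to 1.64 and Atf3 from -0.040 to 2.53, and all 4 upper values came without unimmunized mouse 1, where some groups hold no UMI and fits are undetermined. Jun also turned to -0.12 with HTODemux and -0.019 with at least 20 cells, and Atf3 to -0.076 with doublets removed. Junb lost its call with HTODemux (0.22) and ending 1 only (0.27).

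Myeloid against lymphoid calls went from 5418 to between 3062 and 5221 with 1 mouse left out, lowest without unimmunized mouse 1. Of the 5418, 1403 were of genes with a group without a UMI. Calls of Fos, Jun, Atf3 and Dusp1 were lost without unimmunized mouse 1, where some groups hold no UMI, that of Atf3 also with 1 ending only and without immunized mouse 1, and that of Dusp1 with HTODemux and without immunized mouse 1. Each value stayed positive. Macrophage against monocyte calls went from 2995 to 1991 with HTODemux, 1890 with ending 2 only, 1182 with sums per mouse and 892 without medullary sinus macrophages. With 1 mouse left out they ran from 924, without unimmunized mouse 1, to 2534. Of the 2995, 345 were of genes with a group without a UMI. Fos turned to 0.28 with sums per mouse and 0.82 without medullary sinus macrophages, and Atf3 to 0.39 without them. Ier3 turned to 0.78 with HTODemux, 1.44 with ending 2 only, 0.018 with a stricter gate, 0.83 with sums per mouse and 0.27 without medullary sinus macrophages, and ran from -1.43 to 0.19 with 1 mouse left out. Fos was called lower without immunized mouse 2 (-0.998). Atf3 and Hspa1b lost their calls with DESeq2 (adjusted p = 0.054 and 0.080), Atf3 also with HTODemux (0.26) and at least 20 cells (0.051), and Jun, Atf3 and Hspa1b with ending 2 only. Dusp1 was called in 7 alternatives (adjusted p = 0.0027 to 0.0495).

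Between endings, 117 calls became 229 with no filter on low counts, 0 by edgeR with no replicate block (39 at an unadjusted p under 0.05) and 55 to 152 with 1 mouse left out, 55 without either immunized mouse. Small member differences turned sign. With HTODemux Fosb became 0.061, Egr1 0.11, Dusp1 0.073 and Ier3 0.045, and Jun became -0.022 with DESeq2 and -0.071 without the block. With 1 mouse left out Fosb ran from -0.35 to 0.11, Egr1 from -0.19 to 0.11, Hspa1a from -0.17 to 0.0064 and Ier3 from -0.15 to 0.027. The mouse as a replicate block left 1716, 5484 and 3225 calls in the condition, lineage and macrophage comparisons, and among members that the fits without it could test changed the call of Dusp1 between macrophages and monocytes only. Hspa1a (-1.71) and Hspa1b (-1.85) between conditions, which edgeR could not fit with a coefficient for each type and condition, were called. The block fit keeps those coefficients, and a constant added before the log stands in where a group has no UMI. Of the alternatives to the member calls of 1 type against the others, 269 kept the call and 54 lost it, all in the same direction. The cause of these changes was not tested. Limits are the 2 mice a condition, 537 cells in unimmunized mouse 2, and members so low that in some libraries 1 UMI sets the level.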

Other observations

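Barcodes over the mitochondrial limit held the members at other levels than the kept cells. In 1425 such barcodes Fos was 55.4 CPM against 43.0 CPM in the kept cells, Dusp1 34.0 against 23.9 CPM and Ier3 47.1 against 34.5 CPM, while Junb was 117 against 223 CPM and Hspa1a 3.58 against 9.79 CPM. Among kept cells Fos was 37.7, 68.6 and 95.0 CPM in the 9774 cells under 5%, the 2039 at 5 to 10% and the 326 above 10% mitochondrial UMIs, and Dusp1 was 21.5, 34.8 and 53.2 CPM. Hspa1a had no such order, at 10.6, 4.13 and 28.1 CPM. These are pooled sums over mice and types and were not tested. Mitochondrial UMIs are part of each total, so a larger share of them lowers the level of every other gene. Hspa1a over the limit rests on few UMIs.

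In the 4436 cells that no marker set placed, Fos was 24.6, 29.5, 17.5 and 51.03 CPM in unimmunized mice 1 and 2 and immunized mice 1 and 2, the same order of mice as in all kept cells.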
